A study of Mus musculus with 12 samples.

Results

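The comparison described here is that of megakaryocytes (MKs) sorted from bone marrow (BM) with MKs sorted from spleen, both taken on day 5 of sepsis. It holds 6 of the 12 libraries of the series, chosen by their labels, with 3 libraries of BM MKs and 3 of splenic MKs, and all genes were examined. The other 6 libraries are MKs from the same organs on day 5 after saline and are given side by side where they bear on a result. Both sepsis groups and both saline groups came from Pf4-TdTomato mice on a C57BL/6 background, in which a Cre driven by the Pf4 promoter switches on a red fluorescent protein (tdTomato) from the ROSA26 locus, and the study used male and female mice of 8 to 12 weeks. Sepsis was induced by intraperitoneal cecal slurry (CS), a suspension of bowel content, and controls were injected with saline. Each library was made from 300 sorted cells that carried CD45, tdTomato, CD41 and CD42b, after lineage-positive cells (NK1.1, CD3, CD11b, F4/80 and B220), CD138-positive cells and others had been gated out. Because the reporter is recorded in DNA, it marks every cell whose lineage once used the Pf4 promoter, and not only cells that express Pf4 at the time of sorting. The study describes 3 independent replicates for each population and gives n = 3 mice in its legends. The labels number 3 replicates in each group without saying which animal each came from or whether animals were pooled. The p values therefore measure the spread between these libraries, part of which may be technical.

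MKs are the large polyploid cells that make platelets. They arise from hematopoietic stem cells and progenitors under thrombopoietin, are specified by transcription factors such as Gata1, Tal1, Fli1, Runx1 and Nfe2, and fill their cytoplasm with granules, membranes and a tubulin ring that they pass on to platelets. In mice they reside mainly in BM, with further MKs in the spleen, an organ that otherwise holds large numbers of B cells, plasma cells and other immune cells. The question put to these libraries was how the RNA of MKs in both organs differs during sepsis.

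Expression is given in CPM (read counts per unit of library total, after scaling by edgeR's TMM factors) for replicates 1, 2 and 3 in that order. Total counts ran from 8249323 to 24574713 in BM MKs and from 10010153 to 27386184 in splenic MKs, and a count of 0 allowed up to 3 counts, or 0.105 to 0.336 CPM depending on the library. This limit covers counting error only, as copies made by PCR are not independent molecules. Splenic replicate 3 stood apart from the other two splenic libraries. It lay at 246 on the second principal component of the 6 libraries, which held 28.7% of the variance, against -100 and -177 for splenic replicates 1 and 2, and between -1.89 and 30.0 for the BM libraries. Its share of counts on immunoglobulin and T cell receptor genes was 13%, against 23.5% and 27.6% in the other splenic libraries and 1.04% to 1.73% in BM libraries. Counts of called genes in a list that change without this library are given with and without it.

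Of 20263 genes tested, 121 (0.597%) were called higher in BM MKs and 240 (1.18%) were called higher in splenic MKs, at an adjusted p under 0.05 in edgeR's quasi-likelihood test. Differences are given as log2 fold changes of BM over spleen, so that positive values are higher in BM MKs. Called genes differed widely, with a median size of 5.47 on the log2 scale among genes higher in BM MKs and 5.33 among genes higher in splenic MKs. The 3 BM libraries lay wholly above the 3 splenic libraries in 2224 of the genes tested (11.0%), and the 3 splenic libraries wholly above the BM libraries in 1423 (7.02%). All 121 genes higher in BM MKs and 233 of the 240 genes higher in splenic MKs were separated in this way. Without splenic replicate 3 the counts were 215 and 297, and 114 and 214 of the genes called with all libraries were called again. The filter for low counts was applied anew in that fit and kept 25900 genes, so the omitted library was not the only change. Scaling by library size alone, without TMM factors, gave 214 genes higher in BM MKs and 166 higher in splenic MKs in place of 121 and 240. Among the called genes, protein-coding genes made up 115 of those higher in BM MKs and 174 of those higher in splenic MKs, and immunoglobulin genes 0 and 49.

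**Figure D1:**
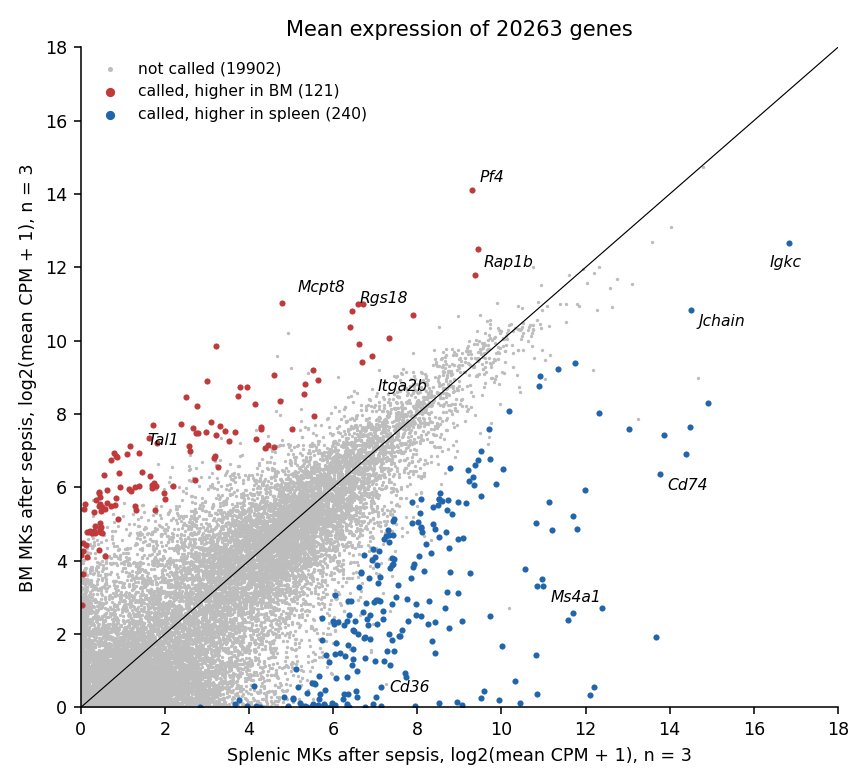
Mean expression of each gene in splenic MKs (x axis) and BM MKs (y axis) after sepsis, as log2 of the mean CPM of 3 libraries plus 1, where each point is a gene. The 121 red genes lie above the diagonal of equal expression and the 240 blue genes below it, with Igkc, Jchain and Cd74 at the far right and Pf4 at the top.

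Genes of the proteins used in the sort were examined first, as a check of the cells. Pf4, the chemokine that gives the reporter its name and a main cargo of platelet alpha granules, had 30581, 12688 and 9606 CPM in BM MKs and 615, 476 and 789.6 CPM in splenic MKs (adjusted p = 0.000336, log2 fold change 4.81, SE 0.64). All 3 splenic libraries thus held Pf4 RNA, at a level far below the lowest BM library. Itga2b (CD41), an integrin subunit of the fibrinogen receptor, had 435, 432 and 156 CPM in BM MKs and 6.43, 19.2 and 320.5 CPM in splenic MKs, so that splenic replicate 3 lay within the BM range and the other two lay below it (adjusted p = 0.457, log2 fold change 1.56, SE 0.95). Without splenic replicate 3, Itga2b was called higher in BM MKs (adjusted p = 0.000688, log2 fold change 4.76), as it was with limma-voom (0.0389 and 3.99). Gp1ba (CD42b), the platelet receptor for von Willebrand factor, had 123, 43.2 and 17.2 CPM in BM MKs and 5.91, 0.112 and 24.0 CPM in splenic MKs and also overlapped (adjusted p = 0.394, log2 fold change 2.61, SE 1.36). Ptprc (CD45), a phosphatase of all nucleated blood cells, went the other way, with 119.8, 98.5 and 106 CPM in BM MKs and 1059, 1052 and 434 CPM in splenic MKs (adjusted p = 0.00305, log2 fold change -2.97, SE 0.51).

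Of the genes whose proteins were gated out, Sdc1 (CD138), a plasma cell proteoglycan, had 13.9, 3.47 and 119 CPM in splenic MKs and 1.43, 2.81 and 0.105 CPM in BM MKs and was not called (adjusted p = 0.271, log2 fold change -4.98, SE 1.83). Klrb1c (NK1.1) was at 0 in 5 of the 6 libraries, and Cd3e, Itgam (CD11b) and Adgre1 (F4/80) overlapped between the organs. Cd3e overlapped through splenic replicate 3. It had 26.4, 15.9 and 0.097 CPM in splenic MKs and 0.522, 0 and 0 CPM in BM MKs. It was not called (adjusted p = 0.203, log2 fold change -6.29, SE 2.11). In Itgam, 68.7% of the exon sequence is shared with another gene on either strand. Taken as a list, 17 genes of the B cell surface summed to 375 to 637 CPM in BM MKs and 4749 to 19773 CPM in splenic MKs, and none of the 17 was at 0 in any of the 6 libraries. Of these sums, Cd52 alone held 191, 229 and 357 CPM in BM MKs and 7756, 6829 and 837 CPM in splenic MKs. Markers of B cells were therefore present in every splenic library beside the MK genes described next, and their part in the lower MK transcripts of the spleen was not tested. In pooled cells, fewer cells of a type and less RNA per cell cannot be told apart.

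Transcription factors of the MK lineage were called higher in BM MKs in 5 of 13 cases and in 0 in the other direction. Their median log2 fold change was 2.61, beside -0.18 over all genes tested, and in 11 of the 13 the libraries did not overlap. Tal1, a bHLH factor of blood stem cells, erythroid cells and MKs, had 130.4, 153 and 82.6 CPM in BM MKs and 0.463, 1.57 and 2.81 CPM in splenic MKs (adjusted p = 0.000336, log2 fold change 6.25, SE 0.83). Nfe2, which drives the last steps of platelet formation, had 185, 171 and 155 CPM in BM MKs and 11.7, 4.26 and 8.73 CPM in splenic MKs (adjusted p = 0.000607, log2 fold change 4.37, SE 0.62). For both genes every BM library lay far above every splenic library. Gata1 (log2 fold change 4.05, adjusted p = 0.0141), Gfi1b (5.33, 0.0301) and Etv6 (3.78, 0.0427) were the other called members. Gata1 was not called without BM replicate 1 (adjusted p = 0.0935) or BM replicate 2 (0.0531), nor Gfi1b without splenic replicate 1 (0.0528), nor Etv6 without BM replicate 2 (0.0527) or splenic replicate 2 (0.0823). Fli1 had 337, 321 and 245 CPM in BM MKs and 76.9, 153 and 109 CPM in splenic MKs and Runx1 had 130.3, 155 and 126 CPM in BM MKs and 52.6, 13.6 and 30.9 CPM in splenic MKs, both without overlap and neither called (adjusted p = 0.220 and 0.133, log2 fold changes 1.42 and 2.08). Lyl1 and Mecom overlapped between the organs. Leaving out splenic replicate 3, 7 of the 13 were called and the median was 3.93.

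The promoters of Pf4 and Tal1 are shown because both genes were called higher in BM MKs and each holds a short motif of a blood-cell transcription factor. They are the 250 bases before the RefSeq start in GRCm38.p6, read 5′ to 3′ on the strand of the gene, and capitals mark a match on either strand to AGATAA, bound by Gata1 and related factors, or to GAGGAAGT, bound by PU.1.
Pf4 (chr5:90772185-90772434, plus strand): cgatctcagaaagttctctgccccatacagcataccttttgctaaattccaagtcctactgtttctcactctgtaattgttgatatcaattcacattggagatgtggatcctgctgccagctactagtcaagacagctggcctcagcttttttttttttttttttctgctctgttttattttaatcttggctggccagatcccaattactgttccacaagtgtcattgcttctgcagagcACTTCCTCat
Tal1 (chr4:115056176-115056425, plus strand): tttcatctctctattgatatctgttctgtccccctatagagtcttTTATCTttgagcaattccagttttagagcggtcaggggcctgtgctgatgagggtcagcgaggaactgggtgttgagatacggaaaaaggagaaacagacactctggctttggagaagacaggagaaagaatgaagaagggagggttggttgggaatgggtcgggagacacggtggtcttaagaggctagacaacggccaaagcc
The PU.1 match in Pf4 begins 10 bases before the start, and the other match, in Tal1, begins 205 bases before it and reads TTATCT because it lies on the opposite strand. Of the 121 genes higher in BM MKs, 96 had a RefSeq promoter by symbol, and AGATAA was found in 10 of 96 (10.4%), among the tested genes with a promoter in 1151 of 13196 (8.72%) and among all genes with a promoter in 3090 of 27025 (11.4%). GAGGAAGT was found in 7 of 96 (7.29%) beside 392 of 13196 (2.97%) of the tested and 755 of 27025 (2.79%) of all genes, and the NF-E2 motif GCTGAGTCA in 2 of 96 (2.08%) beside 50 of 13196 (0.379%) and 115 of 27025 (0.426%) in the same order. A match is a run of letters and not evidence of binding.

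**Figure D2:**
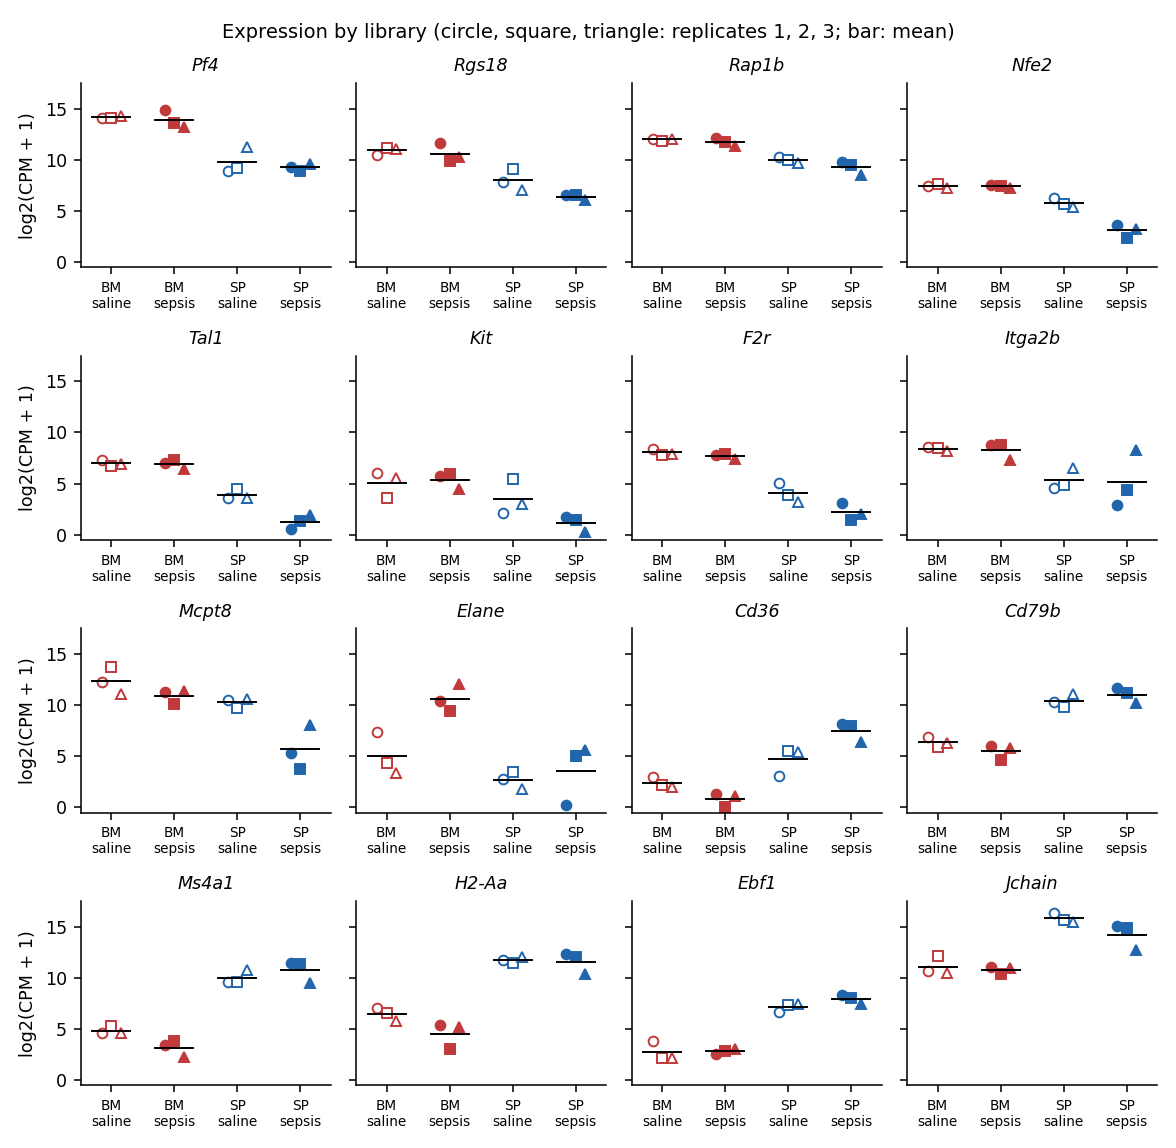
Expression of 16 genes as log2(CPM + 1) in each of the 12 libraries, with BM in red and spleen (SP) in blue, saline as open and sepsis as filled symbols, and bars at the mean of 3 libraries. Among the sepsis libraries, Pf4, Rgs18, Nfe2, Tal1, Kit and F2r are higher in each BM library than in any splenic one, Itga2b overlaps through splenic replicate 3, and Cd36, Cd79b, Ms4a1, H2-Aa, Ebf1 and Jchain are higher in each splenic library.

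Among cytokine and growth factor receptors, Kit was called higher in BM MKs and 0 genes in splenic MKs, out of 15 tested with a median of -0.04. Without splenic replicate 3 the median was 1.61 and 1 gene, other than Kit, was called higher in BM MKs. Kit, the receptor for stem cell factor, had 52.1, 59.8 and 20.9 CPM in BM MKs and 2.31, 1.79 and 0.194 CPM in splenic MKs (adjusted p = 0.0436, log2 fold change 4.93, SE 1.23), and its call was lost when any of 4 libraries was left out (BM replicates 1 and 2 and splenic replicates 2 and 3, adjusted p = 0.0659 to 0.0849). The receptor chains for interleukin-3 were not called. Il3ra, the specific chain, had 1.43, 11.1 and 6.56 CPM in BM MKs and 4.16, 0 and 41.7 CPM in splenic MKs (adjusted p = 0.866, log2 fold change -1.27, SE 1.95), and Csf2rb, the common beta chain, had 22, 97.8 and 169.5 CPM in BM MKs and 140, 102 and 417 CPM in splenic MKs (adjusted p = 0.447, log2 fold change -1.19, SE 0.71). Both were highest in splenic replicate 3. Il1r1, the signaling receptor for interleukin-1, was detected in all BM libraries (11.0, 7.31 and 12.4 CPM) and lay at 0, 0 and 0.0970 CPM in spleen, and was not called (adjusted p = 0.101, log2 fold change 8.02, SE 2.32).

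Receptors by which platelets adhere were higher in BM MKs by their fitted log2 fold change in 14 of 15 genes, but none of these 14 was called. The median was 1.73 and the summed level was 1656 to 5622 CPM in BM MKs and 923 to 1271 CPM in splenic MKs. Clec1b (CLEC-2), the podoplanin receptor, had 1150, 224 and 179 CPM in BM MKs and 164, 11.3 and 30.5 CPM in splenic MKs, without overlap (adjusted p = 0.109, log2 fold change 2.91, SE 0.85). Itgb3, the partner of Itga2b, had 488, 294 and 164 CPM in BM MKs and 50.7, 64.8 and 427 CPM in splenic MKs and overlapped through splenic replicate 3 (adjusted p = 0.701, log2 fold change 0.80, SE 0.74), as did Gp9 and Gp5, subunits of the von Willebrand factor receptor complex. Cd36, a scavenger receptor for fatty acids, oxidized lipoproteins and thrombospondin that platelets share with macrophages, endothelial cells and some B cells, was the 1 member of the list called, and it was higher in spleen. It had 279, 255 and 85.3 CPM in splenic MKs and 1.56, 0 and 1.23 CPM in BM MKs (adjusted p = 0.00149, log2 fold change -7.75, SE 1.21), and after saline its log2 fold change was -2.83 and not called (adjusted p = 0.228). Without splenic replicate 3, 2 members were called higher in BM MKs and the median was 2.46.

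Cargo of the alpha granules, which store proteins for release at sites of injury, was called higher in BM MKs in 3 of 15 genes (Pf4, Ppbp and Mmrn1) and in 0 in the other direction, with a median of 1.68 (1.46 with genes at 0 in all libraries of an organ set to the count limit). Mmrn1 (multimerin 1), the binding protein of factor V, had 293, 158 and 85.4 CPM in BM MKs and 6.58, 7.17 and 4.08 CPM in splenic MKs (adjusted p = 0.0138, log2 fold change 4.91, SE 1.01). Ppbp, the precursor of the chemokine NAP-2, had 14629, 1312 and 1371 CPM in BM MKs and 935, 584 and 565 CPM in splenic MKs (adjusted p = 0.0341, log2 fold change 3.05, SE 0.73), so that BM replicate 1 lay far above the other two BM libraries, and without it the log2 fold change was 0.97 (adjusted p = 0.542). Vwf, the adhesive glycoprotein of platelets and endothelium, had 416, 305 and 116 CPM in BM MKs and 32.0, 34.4 and 44.1 CPM in splenic MKs (adjusted p = 0.0790, log2 fold change 2.92, SE 0.80). Selp (P-selectin, CD62P), which moves to the platelet surface on activation, had 42.4, 63.9 and 32.8 CPM in BM MKs and 0.0514, 2.80 and 0.291 CPM in splenic MKs (adjusted p = 0.0594, log2 fold change 5.49, SE 1.44), and 14.1% of its exon sequence is shared with another gene on either strand. Neither passed the threshold although the libraries of both were fully separated. F13a1, the transglutaminase subunit of factor XIII, and Srgn, the granule proteoglycan serglycin, overlapped between the organs. The median was 2.51 without splenic replicate 3, with the same number of calls. None of the 3 called genes was called by limma-voom.

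The machinery that builds and releases granules showed 3 of 15 genes called higher in BM MKs and 0 in spleen, with a median of 1.35. Slc35d3, a nucleotide sugar transporter needed for platelet dense granules, had 224, 147 and 117 CPM in BM MKs and 1.49, 3.14 and 1.65 CPM in splenic MKs (adjusted p = 0.000607, log2 fold change 6.29, SE 0.90). Rab38, a small GTPase that directs cargo to lysosome-related organelles, had 125, 126 and 90.2 CPM in BM MKs and 0.308, 1.12 and 0.971 CPM in splenic MKs (adjusted p = 0.00181, log2 fold change 7.17, SE 1.15). Rab27b, a GTPase of granule secretion, had 505, 297 and 128 CPM in BM MKs and 8.69, 20.2 and 21.4 CPM in splenic MKs (adjusted p = 0.0260, log2 fold change 4.21, SE 0.97), and limma-voom did not call it. All 3 belong to dense granule formation or release, and in each the highest splenic library stayed far below the lowest BM library. Nbeal2, needed for alpha granules, had 4.82, 10.6 and 15.3 CPM in BM MKs and 2.62, 14.6 and 71.8 CPM in splenic MKs and the opposite sign (adjusted p = 0.518, log2 fold change -1.53, SE 1.03), and Vps33b and Vipas39 overlapped as well.

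Receptors for platelet agonists gave the largest median of the MK groups, 4.51, with 4 of 12 genes called higher in BM MKs and 0 in spleen. F2r (PAR1), a thrombin receptor, had 225, 234 and 172 CPM in BM MKs and 7.66, 1.79 and 3.11 CPM in splenic MKs (adjusted p = 0.000336, log2 fold change 5.64, SE 0.75). F2rl2 (PAR3), the thrombin cofactor receptor of mouse platelets, had 638, 188 and 243 CPM in BM MKs and 27.2, 3.70 and 6.41 CPM in splenic MKs (adjusted p = 0.0207, log2 fold change 4.83, SE 1.06). P2ry1, an ADP receptor, had 220.2, 103 and 116 CPM in BM MKs and 4.58, 1.12 and 1.75 CPM in splenic MKs (adjusted p = 0.00733, log2 fold change 5.86, SE 1.11), and 23.1% of its exon sequence is shared with another gene. Each BM library was thus above each splenic library for these 3 receptors. Ptger3, a prostaglandin E2 receptor, had 37.4, 26.8 and 23.4 CPM in BM MKs and 0.257, 0.336 and 0.582 CPM in splenic MKs (adjusted p = 0.00454, log2 fold change 6.2, SE 1.11), and after saline its log2 fold change was 0.11. F2rl3 (PAR4), the thrombin receptor that signals in mouse platelets, had 34.1, 19.7 and 16.2 CPM in BM MKs and 0.103, 0 and 0.582 CPM in splenic MKs and was not called (adjusted p = 0.0921, log2 fold change 6.63, SE 1.88). P2ry12, the other ADP receptor and the target of clopidogrel, had 38.3, 6.46 and 9.54 CPM in BM MKs and 39.2, 7.40 and 2.04 CPM in splenic MKs, with no order between the organs (adjusted p = 0.987, log2 fold change 0.16, SE 1.12). limma-voom did not call F2rl2 or Ptger3.

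Downstream of these receptors, 3 of 18 signaling genes were called higher in BM MKs and 0 in spleen, with a median of 1.88 and separated libraries in 10. Rgs18, a regulator of G protein signaling restricted largely to MKs and platelets, had 3190, 949.6 and 1265 CPM in BM MKs and 96.6, 93.1 and 66.8 CPM in splenic MKs (adjusted p = 0.000635, log2 fold change 4.40, SE 0.63). Rap1b, the small GTPase that switches on platelet integrins, had 4607, 3427 and 2620 CPM in BM MKs and 901, 743 and 355 CPM in splenic MKs (adjusted p = 0.00661, log2 fold change 2.41, SE 0.45). Tbxas1, thromboxane synthase, had 67.6, 54.2 and 67.4 CPM in BM MKs and 1.08, 1.01 and 0.582 CPM in splenic MKs (adjusted p = 0.00558, log2 fold change 6.13, SE 1.12). Ptgs1, the cyclooxygenase before it in the same pathway, was separated but not called (adjusted p = 0.0822, log2 fold change 3.37, SE 0.93), while Alox12, the platelet lipoxygenase, overlapped. Rasgrp2, Plcg2 and Gnaq, which act between the receptors and Rap1b, had log2 fold changes of 0.06, -0.65 and 0.68 and were not called (adjusted p = 0.995, 0.698 and 0.766). With splenic replicate 3 left out, 6 of the 18 were called, with a median of 2.23.

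In the list for the cytoskeleton that shapes proplatelets, 3 of 17 genes were called higher in BM MKs and 0 in spleen, with a median of 1.41. The list is wider than its name and includes Cavin2, described below. Tuba8, an alpha tubulin, had 148, 65.3 and 105 CPM in BM MKs and 0.308, 0.224 and 1.36 CPM in splenic MKs (adjusted p = 0.000793, log2 fold change 7.39, SE 1.08), with 16.3% of its exons shared with another gene. Cavin2, a caveolar coat protein abundant in platelets, had 634, 424 and 226 CPM in BM MKs and 14.3, 5.15 and 18.7 CPM in splenic MKs (adjusted p = 0.00197, log2 fold change 5.07, SE 0.83). Zyx (zyxin), a focal adhesion protein, had 265, 283 and 186 CPM in BM MKs and 57.9, 22.7 and 55.8 CPM in splenic MKs (adjusted p = 0.0292, log2 fold change 2.42, SE 0.57), and its call was lost without BM replicate 1, BM replicate 2 or splenic replicate 2 (adjusted p = 0.101 to 0.182). Tubb1, the beta tubulin of the platelet marginal band and a defining marker of mature MKs, was near 0 outside BM replicate 1. It had 18.1, 0 and 0.667 CPM in BM MKs and 0.0514, 0.112 and 0 CPM in splenic MKs and was not called (adjusted p = 0.391, log2 fold change 6.63, SE 3.25). Myh9 and Flna, which are used by most cells, overlapped (log2 fold changes 0.24 and 0.33). When splenic replicate 3 was excluded, 4 of the 17 were called.

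**Figure D3:**
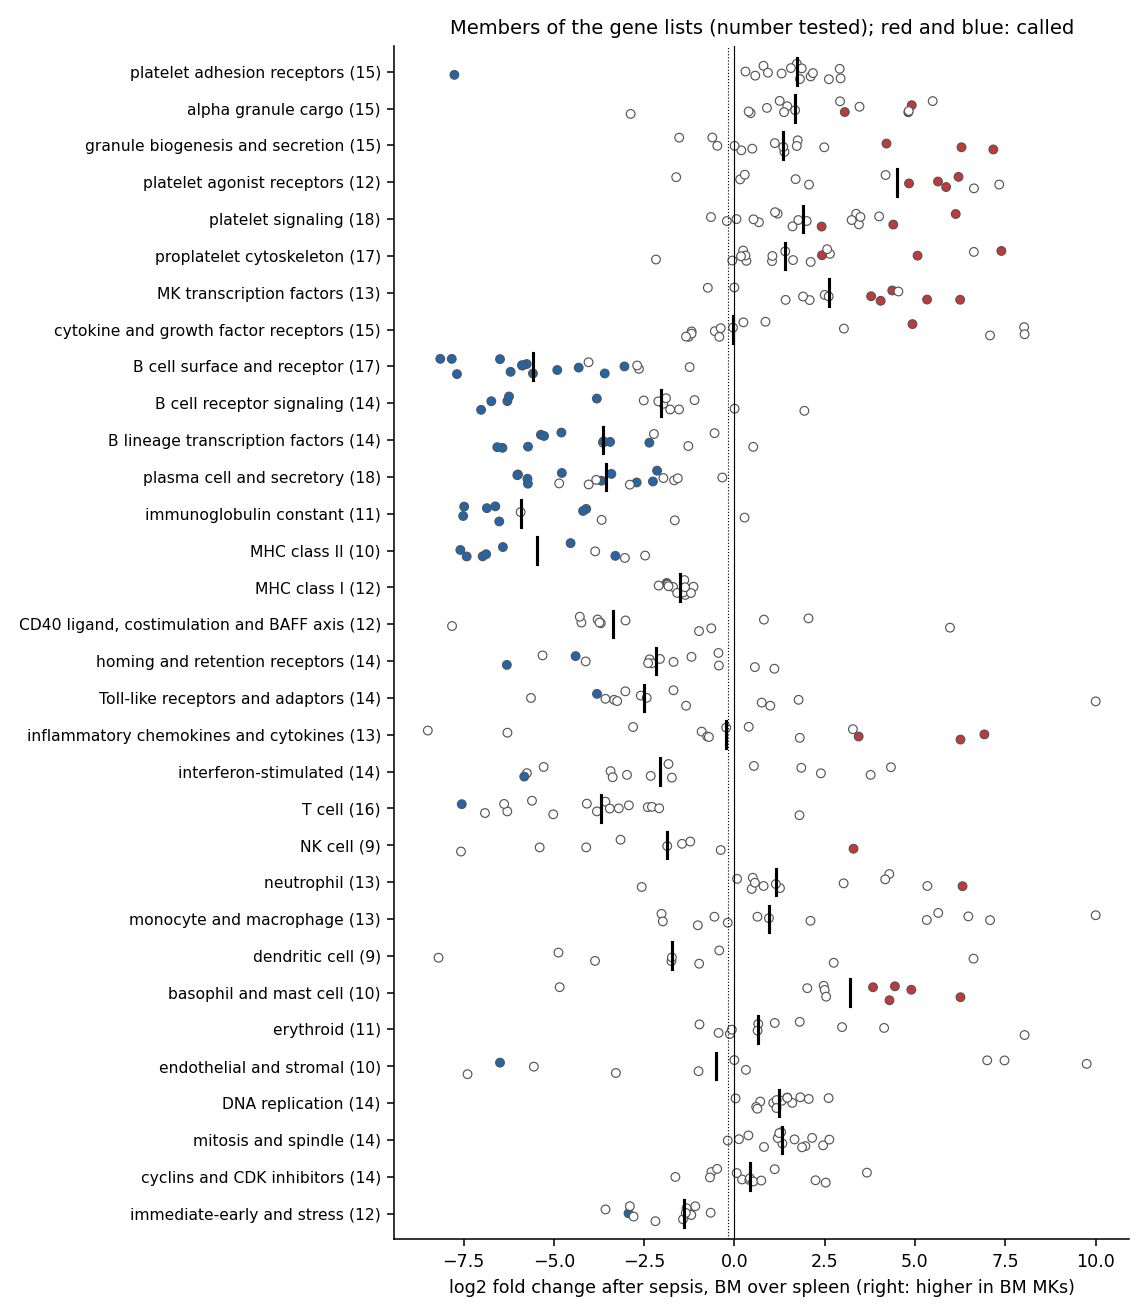
Log2 fold change of BM over splenic MKs after sepsis (x axis) for each tested member of 32 gene lists (rows), where filled red and blue points are called genes, open points are not called, thick bars are list medians and the dotted line is the median of all genes. Lists of MK and platelet genes lie mostly to the right, lists of B cells, immunoglobulin and MHC class II to the left, and replication and mitosis lists to the right with no called member.

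Genes of the B cell surface were called higher in splenic MKs in 13 of 17 cases and in BM MKs in 0, with a median of -5.58. Ms4a1 (CD20) had 2759, 2585 and 704 CPM in splenic MKs and 9.65, 13.3 and 3.79 CPM in BM MKs (adjusted p = 6.47e-05, log2 fold change -7.83, SE 0.77). Cd79b, a signaling chain of the B cell receptor, had 3189, 2394 and 1170 CPM in splenic MKs and 62.0, 23.2 and 56.2 CPM in BM MKs (adjusted p = 8.54e-05, log2 fold change -5.58, SE 0.63). Its partner Cd79a had 2829, 2525 and 125 CPM in splenic MKs and 13.1, 6.12 and 7.44 CPM in BM MKs (adjusted p = 0.000187, log2 fold change -7.68, SE 0.97), with the third splenic library far below the other two. Siglecg, an inhibitory lectin of B cells, and Cr2 (CD21), the complement receptor of mature B cells and follicular dendritic cells, were also called (log2 fold changes -8.14 and -6.49). Siglecg was highest in splenic replicate 3 (196, 115 and 327 CPM), so that this library was not low for every B cell gene. Fcer2a (CD23), Cd72, Cd180 and Cd200 were not called, the first 3 with separated libraries. In the absence of splenic replicate 3, 14 of the 17 were called and the median was -5.57.

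In B cell receptor signaling 5 of 14 genes were called higher in splenic MKs and 0 in BM MKs, with a median of -2.04. Blnk, the adaptor that couples Syk to its targets, had 367, 402 and 209 CPM in splenic MKs and 2.35, 1.02 and 4.11 CPM in BM MKs (adjusted p = 0.000129, log2 fold change -7.01, SE 0.83). Blk, a Src kinase of B cells, had 173, 133 and 133 CPM in splenic MKs and 1.70, 2.38 and 0.105 CPM in BM MKs (adjusted p = 0.000908, log2 fold change -6.73, SE 1.0). Bank1, a B cell scaffold, had 277, 333 and 297 CPM in splenic MKs and 8.35, 0.170 and 3.05 CPM in BM MKs (adjusted p = 0.00125, log2 fold change -6.29, SE 0.96). All 3 are largely confined to B cells, as background, and reached at most 8.35 CPM in BM. Kinases that MKs and platelets also use showed smaller differences, with log2 fold changes of -1.53 for Lyn, -1.78 for Syk and -1.97 for Btk, each with higher splenic libraries and not called (adjusted p = 0.290, 0.218 and 0.279). Dapp1 (Bam32), an adaptor of B cells, had 311, 309.7 and 253 CPM in BM MKs and 89.8, 21.8 and 117 CPM in splenic MKs, higher in BM MKs without a call (adjusted p = 0.122, log2 fold change 1.94, SE 0.58). Excluding splenic replicate 3, 6 of the 14 were called higher in splenic MKs and 1 in BM MKs.

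Transcription factors of the B lineage were called higher in splenic MKs in 9 of 14 cases, and 0 were called in the other direction, with a median of -3.63. Ebf1, an early B cell factor, had 319.6, 255 and 169 CPM in splenic MKs and 4.76, 6.38 and 6.98 CPM in BM MKs (adjusted p = 0.000413, log2 fold change -5.36, SE 0.73). Pou2af1 (OBF1), the B cell coactivator at octamer sites, had 517, 544 and 778 CPM in splenic MKs and 7.24, 11.0 and 16.7 CPM in BM MKs (adjusted p = 0.000773, log2 fold change -5.71, SE 0.84). Spib, an ETS factor, had 121, 109 and 52.6 CPM in splenic MKs and 1.76, 0 and 1.16 CPM in BM MKs (adjusted p = 0.00436, log2 fold change -6.57, SE 1.17). The master regulator Pax5 had 40.3, 29.7 and 127 CPM in splenic MKs and 0.848, 0 and 1.37 CPM in BM MKs (adjusted p = 0.0208, log2 fold change -6.42, SE 1.41), highest in the third library. Bach2, Pou2f2, Foxo1, Irf8 and Bcl11a completed the called genes. The last 4 calls were lost when single libraries were left out. Pou2f2 was not called without splenic replicate 3 (adjusted p = 0.120), nor Foxo1 without BM replicate 1 or 3 (0.0512 and 0.0943). Irf8 was not called without BM replicate 1, 2 or 3 or splenic replicate 3 (0.145 to 0.467, with a log2 fold change of -1.86 without the latter). Bcl11a was not called when any 1 library other than splenic replicate 3 was left out (0.124 to 0.361). Mef2c, which MKs and B cells both use, had 253, 160.1 and 317 CPM in splenic MKs and 440.3, 372 and 236 CPM in BM MKs (adjusted p = 0.721, log2 fold change 0.52, SE 0.51). After leaving out splenic replicate 3, 7 of the 14 were called and the median was -3.10.

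Promoters of Spib and Bank1 are shown as those of 2 B cell genes of this direction that hold a match to CCCNNGGG, bound by EBF proteins. Capitals mark these matches and, in Bank1, a match to the interferon response motif GAAANNGAA, over the 250 bases before the RefSeq start in GRCm38.p6, read on the strand of the gene.
Spib (chr7:44532072-44532321, minus strand): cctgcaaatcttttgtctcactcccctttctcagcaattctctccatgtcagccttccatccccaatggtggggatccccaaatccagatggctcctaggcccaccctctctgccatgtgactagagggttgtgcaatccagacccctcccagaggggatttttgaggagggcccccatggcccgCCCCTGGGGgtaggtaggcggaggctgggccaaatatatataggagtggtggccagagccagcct
Bank1 (chr3:136326067-136326316, minus strand): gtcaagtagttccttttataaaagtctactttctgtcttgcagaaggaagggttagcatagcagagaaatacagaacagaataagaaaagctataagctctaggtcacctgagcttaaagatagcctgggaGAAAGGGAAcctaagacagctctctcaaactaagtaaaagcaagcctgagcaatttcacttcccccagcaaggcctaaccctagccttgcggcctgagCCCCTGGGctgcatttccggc
In Spib 2 such matches overlap, beginning 65 and 64 bases before the start. In Bank1 the match begins 21 bases and the interferon response match 119 bases before the start. CCCNNGGG was found in 27 of 143 (18.9%) of the genes higher in splenic MKs that had a RefSeq promoter, in 18 of 96 (18.8%) of those higher in BM MKs and in 2283 of 13196 (17.3%) of all tested genes with a promoter. The octamer ATTTGCAT was found in 6 of 143 (4.20%), 1 of 96 (1.04%) and 210 of 13196 (1.59%) of the same sets. GAGGAAGT was found in 12 of 143 (8.39%) of the splenic genes beside 392 of 13196 (2.97%) of those tested. GAAANNGAA was found in 16 of 143 (11.2%), 11 of 96 (11.46%) and 1040 of 13196 (7.88%) in the same order. GCTGAGTCA was found in 0 of the 143 splenic genes. These shares are descriptions of short letter runs.

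Genes of plasma cells and antibody secretion were called higher in splenic MKs in 10 of 18 cases, with 0 in the other direction and a median of -3.54. Jchain, the joining chain of polymeric immunoglobulin, had 33994, 29609 and 6552 CPM in splenic MKs and 2185, 1344 and 1936 CPM in BM MKs (adjusted p = 0.00181, log2 fold change -3.68, SE 0.59). Irf4, a factor of plasma cells and activated B cells, had 91.5, 35.3 and 140.1 CPM in splenic MKs and 0.782, 7.91 and 1.09 CPM in BM MKs (adjusted p = 0.0220, log2 fold change -4.78, SE 1.06), highest in the third library, and lost its call without BM replicate 1 (0.0724) or BM replicate 3 (0.0682). Derl3, of the degradation of misfolded proteins in the endoplasmic reticulum, had 74.2, 129 and 296 CPM in splenic MKs and 1.5, 4.0 and 2.25 CPM in BM MKs (adjusted p = 0.0134, log2 fold change -6.01, SE 1.24), also highest in the third library. Prdm1 (Blimp-1) and Xbp1, which drive plasma cell formation, were separated and not called (log2 fold changes -4.85 and -1.67, adjusted p = 0.213 and 0.118). Mzb1 had 809, 648 and 30.5 CPM in splenic MKs and 4.76, 0.765 and 17.6 CPM in BM MKs and was called (adjusted p = 0.00646, log2 fold change -5.99, SE 1.12), though 57.2% of its exon sequence is shared with another gene. Hsp90b1 and Edem1, whose proteins act in the endoplasmic reticulum of most cells, were called with smaller log2 fold changes (-2.14 and -2.26). Both calls were lost without BM replicate 1, 2 or 3 or splenic replicate 3 (adjusted p = 0.0755 to 0.219), where the log2 fold change of Hsp90b1 was -1.35 without the last, and that of Edem1 also without splenic replicate 1 (0.0924). The count was 10 and the median -2.79 without splenic replicate 3.

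Of 140 immunoglobulin genes tested, 49 were called higher in splenic MKs and 0 in BM MKs. Of the constant regions, 7 of 11 were called, with a median of -5.92, and 8 without splenic replicate 3. limma-voom did not call Ighm, Iglc1, Iglc2 or Ighg2b (adjusted p = 0.158, 0.523, 0.378 and 0.221), and the fit of the 6 sepsis libraries alone did not call Igkc, Iglc1 or Ighg2b (0.0604, 0.0606 and 0.108). Igkc, the kappa constant region, had 139430, 145699 and 67536 CPM in splenic MKs and 7152, 4140 and 8024 CPM in BM MKs (adjusted p = 8.2e-05, log2 fold change -4.19, SE 0.47). Ighm, the heavy chain of IgM, had 27341, 21656 and 43519 CPM in splenic MKs and 584, 57.2 and 299 CPM in BM MKs (adjusted p = 0.000184, log2 fold change -6.62, SE 0.82), highest in splenic replicate 3. Ighd, that of IgD, had 276, 158 and 296 CPM in splenic MKs and 24.4, 11.3 and 6.77 CPM in BM MKs (adjusted p = 0.00363, log2 fold change -4.10, SE 0.71). The 3 lambda constant regions were called as well, with log2 fold changes of -6.85 for Iglc1, -7.48 for Iglc2 and -6.51 for Iglc3. The near-identical sequences of Iglc2 and Iglc3 make the split of reads between these genes uncertain. Switched classes varied by library. Ighg2b had 66.9, 2477 and 5.43 CPM in splenic MKs and 0.978, 4.93 and 8.0 CPM in BM MKs (adjusted p = 0.0288, log2 fold change -7.51, SE 1.75), and without splenic replicate 2 its log2 fold change was -2.94 and its call was lost (0.427). Igha had 39.1, 21.2 and 2996 CPM in splenic MKs and 454, 1981 and 1277 CPM in BM MKs, with no order between the organs (adjusted p = 0.981, log2 fold change 0.28, SE 1.72). Igkc and Jchain were also detected in every BM library. Variable segments gave 41 of the 49 calls, and members of one V family share sequence, so that reads may have been divided among them.

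MHC class II, which presents antigen to CD4 T cells, was called higher in splenic MKs in 7 of 10 genes, with 0 in the other direction and a median of -5.47. H2-Aa had 5011, 4280 and 1295 CPM in splenic MKs and 40.8, 7.06 and 36.5 CPM in BM MKs (adjusted p = 6.57e-05, log2 fold change -6.97, SE 0.76). H2-Ab1 and H2-Eb1, its partners, had log2 fold changes of -6.41 and -6.87 (adjusted p = 6.51e-05 for both), without overlap. Cd74, the invariant chain, had 22661, 16620 and 2284 CPM in splenic MKs and 155, 15.6 and 73.9 CPM in BM MKs (adjusted p = 0.000184, log2 fold change -7.41, SE 0.93). H2-DMb2 and H2-Ob, which edit the peptide load in B cells and other presenting cells, were called (log2 fold changes -7.59 and -4.54), and the transactivator Ciita was not (adjusted p = 0.334, log2 fold change -3.03, SE 1.22). Summed over the list, the level was 128 to 377 CPM in BM MKs and 6355 to 34919 CPM in splenic MKs, with splenic replicate 3 the lowest of the splenic libraries, and without it 8 of the 10 were called. Class II genes are also used by the B cells whose markers are given above, and the part of those cells was not tested.

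MHC class I, present on platelets and nearly all cells, differed less, with 1 of 12 genes called (0 in BM MKs), a median of -1.50 and all 12 log2 fold changes negative. H2-K1 had 1464, 1461 and 2843 CPM in splenic MKs and 479, 623 and 469.8 CPM in BM MKs (adjusted p = 0.0315, log2 fold change -1.88, SE 0.45), and its call was lost when BM replicate 1, 2 or 3 or splenic replicate 2 was left out (adjusted p = 0.0726 to 0.200). B2m, the light chain, had 9945, 7029 and 1410 CPM in splenic MKs and 4596, 1502 and 2284 CPM in BM MKs and overlapped (adjusted p = 0.391, log2 fold change -1.13, SE 0.56). Without splenic replicate 3, 3 of the 12 were called.

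The gene of CD40 ligand, Cd40lg, was at 0 in all 3 BM libraries and in splenic replicates 1 and 2. It had 4.76 CPM in splenic replicate 3, and it did not pass the expression filter, so it was not tested. Of 12 tested genes of CD40 ligand, costimulation and the BAFF axis, 0 were called by edgeR in either direction with all libraries, with a median of -3.36, and 1 was called higher in spleen without splenic replicate 3. Tnfrsf13b (TACI) had 229, 84.5 and 280.1 CPM in splenic MKs and 11.1, 33.2 and 29.1 CPM in BM MKs (adjusted p = 0.0624, log2 fold change -3.02, SE 0.80). Tnfrsf13c, the BAFF receptor of B cells, had 144, 138 and 153 CPM in splenic MKs and 16.3, 0.510 and 6.21 CPM in BM MKs (adjusted p = 0.0756, log2 fold change -4.24, SE 1.15). Cd83, an activation marker, had 42.8, 58.6 and 26.8 CPM in splenic MKs and 1.63, 1.79 and 3.12 CPM in BM MKs (adjusted p = 0.0810, log2 fold change -4.28, SE 1.18). These 3 were separated between the organs with adjusted p over the threshold. Cd40lg itself was detected in splenic replicate 3 alone among the sepsis libraries, so a difference in it between the organs was not tested.

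Of 14 receptors of homing and retention, 2 were called higher in splenic MKs and 0 in BM MKs, with a median of -2.17. Cxcr5, which brings B cells into follicles, had 33.7, 44.1 and 61.6 CPM in splenic MKs and 0.261, 0 and 1.40 CPM in BM MKs (adjusted p = 0.0130, log2 fold change -6.30, SE 1.29). S1pr1, the receptor for sphingosine-1-phosphate in lymphocyte egress and proplatelet release, had 133, 129 and 148 CPM in splenic MKs and 11.1, 2.38 and 5.89 CPM in BM MKs (adjusted p = 0.00510, log2 fold change -4.40, SE 0.80). Cxcr4, the receptor for Cxcl12 that holds progenitors in BM, had 14.6, 28.2 and 23 CPM in splenic MKs and 11.9, 12.5 and 24.0 CPM in BM MKs, with overlap (adjusted p = 0.872, log2 fold change -0.44, SE 0.70). Among 14 Toll-like receptor genes and adaptors, Ly86 (MD-1), the partner of Cd180 in B cells, was the 1 gene called (adjusted p = 0.00707, log2 fold change -3.80, SE 0.72), with 1606, 934 and 279 CPM in splenic MKs and 30.4, 34.2 and 137 CPM in BM MKs. Tlr4, the receptor for lipopolysaccharide, had 26.2, 8.63 and 43.9 CPM in splenic MKs and 3.91, 0.255 and 10.4 CPM in BM MKs (adjusted p = 0.581, log2 fold change -2.43, SE 1.81), and Tlr2 and Tlr9 overlapped too. With splenic replicate 3 left out, 3 of the homing receptors and 2 of the Toll-like genes were called, with medians of -2.33 and -1.24, the latter from -2.51.

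Inflammatory chemokines and cytokines gave 3 calls among 13 genes, all higher in BM MKs, with a median of -0.23. Il1b (interleukin-1 beta) had 75.4, 32.2 and 28.5 CPM in BM MKs and 0.0514, 0 and 1.07 CPM in splenic MKs (adjusted p = 0.0347, log2 fold change 6.92, SE 1.67). Ccl4 (MIP-1 beta) had 101, 26.9 and 152 CPM in BM MKs and 3.80, 2.91 and 19.1 CPM in splenic MKs (adjusted p = 0.0366, log2 fold change 3.44, SE 0.84), and its neighbor Ccl3 had 265, 138 and 346 CPM in BM MKs and 6.48, 4.59 and 66.2 CPM in splenic MKs (adjusted p = 0.0769, log2 fold change 3.28, SE 0.90). Il1b was not called without BM replicate 1, splenic replicate 1 or splenic replicate 2 (adjusted p = 0.0517 to 0.0594), and Ccl4 was not called without splenic replicate 2 (0.0556). Il4, a cytokine of basophils, mast cells and T cells, had 28.2, 40.4 and 26.2 CPM in BM MKs and 0.822, 0.112 and 0.194 CPM in splenic MKs (adjusted p = 0.00525, log2 fold change 6.26, SE 1.14). For Il4 and Ccl4 the log2 fold change after saline was negative (-0.66 and -1.06) and not called. Il6 had 6.98, 9.10 and 30.1 CPM in BM MKs and 0.565, 12.7 and 0.0970 CPM in splenic MKs, and Tnf reached at most 4.95 CPM in any of the 6 libraries. Excluding splenic replicate 3, 4 of the 13 were called and the median was -0.04.

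Interferon-stimulated genes were mixed, with 5 positive and 9 negative log2 fold changes among 14, a median of -2.07 (-1.26 without splenic replicate 3), and 1 call. Ifi27l2a had 2934, 2203 and 255 CPM in splenic MKs and 49.4, 17.9 and 28.2 CPM in BM MKs (adjusted p = 0.00125, log2 fold change -5.82, SE 0.89). Isg15 and Mx1 had at most 11.0 and 14.3 CPM in any of the 6 libraries. The Ifitm family of membrane proteins that restrict virus entry, singled out after its values were seen, had 3 of 7 tested genes called higher in BM MKs and 0 in spleen. Ifitm3 had 1732, 680.0 and 1597 CPM in BM MKs and 68.6, 91.3 and 90.3 CPM in splenic MKs (adjusted p = 0.00386, log2 fold change 4.0, SE 0.70), and Ifitm1 had 318, 251 and 775 CPM in BM MKs and 9.66, 4.59 and 103 CPM in splenic MKs (adjusted p = 0.0436, log2 fold change 3.52, SE 0.88). The call of Ifitm1 was lost in edgeR with RLE in place of TMM factors (0.0679) or a filter of 10 counts in 6 libraries (0.0715). It was also lost in the fit of the 6 sepsis libraries alone (0.165) and by limma-voom (0.0542). Ifitm2 had 376, 156 and 354 CPM in BM MKs and 5.81, 3.14 and 8.54 CPM in splenic MKs (adjusted p = 0.000108, log2 fold change 5.66, SE 0.66), with 40.9% of its exons shared with another gene.

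Markers of basophils and mast cells, another lineage near MKs in BM, were called higher in BM MKs in 5 of 10 cases, with 0 in the other direction and a median of 3.19. Mcpt8, a basophil protease, had 2430, 1080 and 2622 CPM in BM MKs and 38.0, 12.7 and 262 CPM in splenic MKs (adjusted p = 0.0141, log2 fold change 4.29, SE 0.89). Prss34, another protease of basophils, had 2178, 1115 and 2876 CPM in BM MKs and 30.3, 8.63 and 245 CPM in splenic MKs (adjusted p = 0.0235, log2 fold change 4.44, SE 1.0). Cpa3, carboxypeptidase A3, had 518, 138 and 625 CPM in BM MKs and 6.58, 3.81 and 32.6 CPM in splenic MKs (adjusted p = 0.00500, log2 fold change 4.90, SE 0.89). Within spleen, replicate 3 was highest for all 3 genes. Ms4a2, the beta chain of the high-affinity IgE receptor, had 93.8, 109 and 141 CPM in BM MKs and 2.67, 4.48 and 17.0 CPM in splenic MKs (adjusted p = 0.0328, log2 fold change 3.84, SE 0.92), and its call was lost without splenic replicate 2 (0.0535). Its partner Fcer1a had 129, 82.6 and 201 CPM in BM MKs and 5.35, 2.02 and 67.2 CPM in splenic MKs, without overlap or call (adjusted p = 0.276, log2 fold change 2.47, SE 0.92). Of the mast cell proteases, Cma1 was at 0 in all 6 libraries and Mcpt4 in 5 of them. limma-voom called none of the 5 (adjusted p = 0.110 for Il4 to 0.366 for Mcpt8), and the fit of the 6 sepsis libraries alone did not call Mcpt8 (0.0911) or Prss34 (0.100). When splenic replicate 3 was left out, 8 of the 10 were called and the median was 5.19. Summed over 12 genes the list reached 2842 to 6772 CPM in BM MKs and 54.3 to 746 CPM in splenic MKs. After saline its median was 0.31 and edgeR called none of its genes. These transcripts accompany the higher MK genes of BM, and their part in them was not tested. Gata2 is used by basophils, mast cells and early MKs alike and had 106, 163 and 111 CPM in BM MKs and 4.58, 8.96 and 53.7 CPM in splenic MKs (adjusted p = 0.115, log2 fold change 2.50, SE 0.74).

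The promoter of Ms4a2 is shown because it holds 3 matches to AGATAA, in capitals on either strand, which begin 224, 37 and 11 bases before the RefSeq start in GRCm38.p6.
Ms4a2 (chr19:11623720-11623969, minus strand): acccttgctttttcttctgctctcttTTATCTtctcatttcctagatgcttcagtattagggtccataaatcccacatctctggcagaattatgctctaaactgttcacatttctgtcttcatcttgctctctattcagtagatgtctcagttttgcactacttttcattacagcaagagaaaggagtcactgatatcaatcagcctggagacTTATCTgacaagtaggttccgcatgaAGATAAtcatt

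Elane, Mpo and Prtn3, granule genes of neutrophil precursors, lay higher in every BM library than in every splenic library, and 1 of the 3 was called. Elane, neutrophil elastase, had 1313, 697 and 4305 CPM in BM MKs and 0.154, 31.6 and 47.7 CPM in splenic MKs and was called (adjusted p = 0.0231, log2 fold change 6.32, SE 1.42), though not in the fit of the 6 sepsis libraries alone (adjusted p = 0.0911) or by limma-voom (0.224). Mpo had 141, 862 and 811 CPM in BM MKs and 0.154, 0.336 and 92.5 CPM in splenic MKs (adjusted p = 0.246, log2 fold change 4.29, SE 1.53) and Prtn3 had 412, 627 and 2543 CPM in BM MKs and 0.360, 0.448 and 87.6 CPM in splenic MKs (adjusted p = 0.0905, log2 fold change 5.34, SE 1.51), both separated and not called. Genes of later neutrophils, S100a8, S100a9, Camp and Ngp, were highest in BM replicates 2 and 3 and splenic replicate 1 and lowest in splenic replicates 2 and 3, with BM replicate 1 between. S100a8 had 588, 4740 and 7098 CPM in BM MKs and 5140, 27.5 and 19.3 CPM in splenic MKs (adjusted p = 0.797). In all, 1 of 13 neutrophil genes was called, the median was 1.15 (3 called and a median of 0.69 without splenic replicate 3) and the summed level was 2686 to 19536 CPM in BM MKs and 68.3 to 10701 CPM in splenic MKs. Ms4a3, a gene of granulocyte and monocyte progenitors and basophils, had 411, 464 and 1903 CPM in BM MKs and 15.8, 1.79 and 7.08 CPM in splenic MKs (adjusted p = 0.000607, log2 fold change 6.81, SE 0.97), and Myb, a factor of hematopoietic progenitors chosen after its values were seen, had 128, 274 and 142 CPM in BM MKs and 17.2, 11.2 and 6.31 CPM in splenic MKs (adjusted p = 0.00176, log2 fold change 3.97, SE 0.63).

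T cell markers had negative log2 fold changes in 15 of 16 cases, with a median of -3.69, but 1 was called. That gene, Cd8b1, had 122, 30.0 and 0.388 CPM in splenic MKs and 0.261, 0.510 and 0.0702 CPM in BM MKs (adjusted p = 0.0261, log2 fold change -7.55, SE 1.74), and its splenic replicate 3 lay within the BM range. The list summed to 10.5 to 136 CPM in BM MKs and 188 to 816 CPM in splenic MKs, and splenic replicate 3 was the lowest of the splenic libraries. Of 9 NK cell genes, Nkg7, a granule protein of NK cells, T cells and some myeloid cells including basophils, was the 1 called, higher in BM MKs at 928, 734 and 1199 CPM in BM MKs and 130.4, 135 and 25.4 CPM in splenic MKs (adjusted p = 0.0116, log2 fold change 3.30, SE 0.66). The receptor Klrb1c was at 0 in 5 of the 6 libraries and Ncr1 in 3 of them. Monocyte and macrophage genes (13 tested), dendritic cell genes (9) and erythroid genes (11) had 0 calls in either direction by edgeR, with medians of 0.96, -1.73 and 0.66, and without splenic replicate 3 the first and the second had 1 called gene each, both higher in BM MKs. Their summed levels were 839 to 1985 CPM in BM MKs and 416 to 979 CPM in splenic MKs for the first, 22.7 to 52.6 CPM in BM MKs and 63.3 to 194 CPM in splenic MKs for the second and 311 to 382 CPM in BM MKs and 100.5 to 158 CPM in splenic MKs for the third. Of 10 endothelial and stromal genes 1 was called, Cr2, which is a B cell gene too, and Col1a1 and Madcam1 were at 0 in all 6 libraries.

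**Figure D4:**
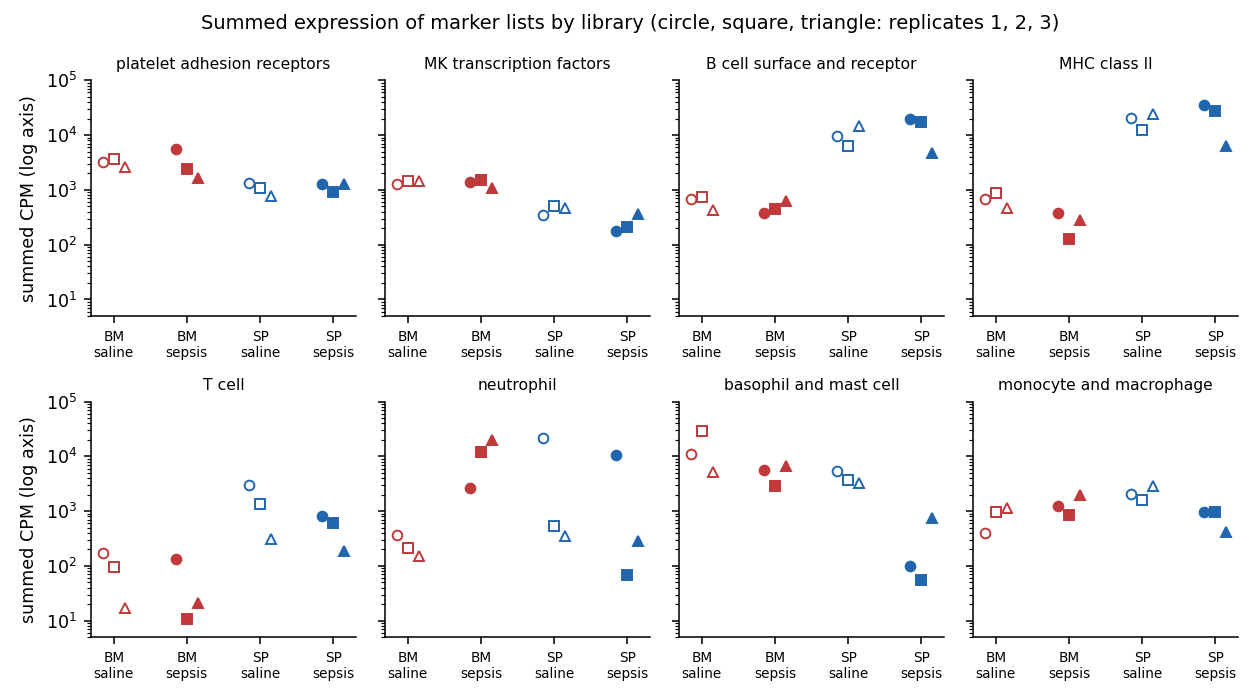
Summed CPM (log axis) of 8 marker lists in each of the 12 libraries, with BM in red and spleen (SP) in blue, saline open and sepsis filled. After sepsis the B cell and MHC class II sums separate spleen from BM without overlap, the basophil and mast cell sums are higher in BM, and the neutrophil sums overlap, with splenic replicate 1 within the BM range.

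Genes of DNA replication and mitosis had positive log2 fold changes in 14 of 14 and 13 of 14 cases, with medians of 1.24 and 1.31, and 0 of the 28 were called by edgeR. Pola1, a subunit of DNA polymerase alpha, had 70.3, 85.9 and 73.9 CPM in BM MKs and 12.4, 10.6 and 14.7 CPM in splenic MKs (adjusted p = 0.317, log2 fold change 2.61, SE 1.02). Cdk1, the kinase of mitotic entry, had 263, 139 and 188 CPM in BM MKs and 67.6, 8.4 and 19.4 CPM in splenic MKs (adjusted p = 0.340, log2 fold change 2.63, SE 1.07). Mki67, the proliferation marker Ki-67, had 108, 157 and 161 CPM in BM MKs and 87.0, 71.4 and 232 CPM in splenic MKs and overlapped (adjusted p = 0.978, log2 fold change 0.13, SE 0.69). Of 14 cyclins and inhibitors 0 were called (1 without splenic replicate 3), and Cdk6, a cyclin D kinase of progenitors, came nearest at 251, 377 and 375 CPM in BM MKs and 11.0, 7.17 and 60.8 CPM in splenic MKs (adjusted p = 0.0943, log2 fold change 3.67, SE 1.05).

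Immediate-early and stress genes were negative in 12 of 12 cases, with a median of -1.39 and 1 call. Fos had 186, 241 and 561 CPM in splenic MKs and 48.3, 53.5 and 27.6 CPM in BM MKs (adjusted p = 0.0257, log2 fold change -2.93, SE 0.67), highest in splenic replicate 3. The call was lost without BM replicate 1 (adjusted p = 0.0594), BM replicate 3 (0.112) or splenic replicate 3 (0.0521). Egr1 had 59.3, 56.9 and 481 CPM in splenic MKs and 24.8, 34.9 and 26.5 CPM in BM MKs (adjusted p = 0.0880, log2 fold change -2.79, SE 0.78). These genes respond to tissue handling as well as to stimuli, as background, and how long each organ was handled is not stated here. Ribosomal protein genes (96 tested, 9 of them S6 kinase genes taken in by the rule on symbols) had a median of -0.05 and 0 calls, and 8 mitochondrial transcripts had a median of -0.76 and 0 calls (1 and 2 higher in splenic MKs without splenic replicate 3).

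Among called genes outside these lists, Tceal8, an X-linked gene of the TCEAL family, had 277, 181 and 166 CPM in BM MKs and 3.65, 1.01 and 2.23 CPM in splenic MKs (adjusted p = 0.000108, log2 fold change 6.48, SE 0.76; GRCm38 chromosome X, 136168984 to 136172342). Slc14a1, the urea transporter and Kidd blood group protein, had 442, 388 and 229.9 CPM in BM MKs and 2.26, 8.29 and 3.40 CPM in splenic MKs (adjusted p = 0.000184, log2 fold change 6.25, SE 0.78). Muc13, a membrane mucin, had 97.4, 149 and 115 CPM in BM MKs and 0.565, 0.560 and 1.07 CPM in splenic MKs (adjusted p = 0.000184, log2 fold change 7.35, SE 0.92). Gstm5, a glutathione transferase, had 43.5, 47.8 and 55.7 CPM in BM MKs and 0.411, 0.224 and 0.194 CPM in splenic MKs (adjusted p = 0.000336, log2 fold change 7.38, SE 0.99), with 13.9% of its exons shared with another gene. In these 4 no splenic library exceeded 8.29 CPM. Angpt1 (angiopoietin-1), a ligand of Tie2, was chosen after its values were seen and had 188, 219 and 177 CPM in BM MKs and 5.09, 9.52 and 1.46 CPM in splenic MKs (adjusted p = 0.0196, log2 fold change 5.18, SE 1.13).

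On the splenic side, Ly6a (Sca-1), a surface marker of stem cells and activated lymphocytes, had 2588, 2227 and 1179 CPM in splenic MKs and 14.2, 3.40 and 13.5 CPM in BM MKs (adjusted p = 6.51e-05, log2 fold change -7.58, SE 0.81; GRCm38 chromosome 15, 74994877 to 74998031). Ly6d, a marker of B lineage commitment, had 6256, 5508 and 406 CPM in splenic MKs and 106, 28.6 and 43.1 CPM in BM MKs (adjusted p = 0.000607, log2 fold change -6.09, SE 0.87), with the third library the lowest. Crip1, a LIM domain protein, had 4510, 4039 and 1764 CPM in splenic MKs and 636, 530.2 and 837 CPM in BM MKs (adjusted p = 0.0116, log2 fold change -2.36, SE 0.47) and after saline a log2 fold change of -0.53 without a call. The Gimap family, GTPases of lymphocyte survival encoded together on chromosome 6, was singled out after its values were seen and had 6 of 8 tested genes called higher in splenic MKs and 0 in BM MKs, with a median of -4.35. Gimap4 had 665, 390.2 and 228 CPM in splenic MKs and 7.17, 0.595 and 2.63 CPM in BM MKs (adjusted p = 0.000446, log2 fold change -6.94, SE 0.96), and Gimap3 had 135, 85.4 and 346 CPM in splenic MKs and 5.74, 1.11 and 1.65 CPM in BM MKs (adjusted p = 0.00100, log2 fold change -6.06, SE 0.91). Neither of these calls was lost when any single library was left out, while those of Gimap1, Gimap5, Gimap6 and Gimap8 each were without at least 1 library. Klf2, a factor of quiescent lymphocytes and endothelium chosen in the same way, had 190.4, 273 and 180.2 CPM in splenic MKs and 3.26, 15 and 1.93 CPM in BM MKs (adjusted p = 0.00176, log2 fold change -5.00, SE 0.79).

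The same comparison in the 6 saline libraries, which share no library with it, gave 106 genes higher in BM MKs (0.523% of those tested) and 147 higher in splenic MKs (0.725%). Of the 121 genes higher in BM MKs after sepsis, 35 (28.9%, and 33.0% of the 106) were called after saline too, and 109 had the same sign. Of the 240 genes higher in splenic MKs, 115 (47.9%, and 78.2% of the 147) were called after saline too, and 236 had the same sign. Over all genes tested, 12441 of 20263 had the same sign in both comparisons. Both comparisons were fitted with 1 shared estimate of the spread. A gene called after sepsis and not after saline was not shown to differ between them. The direct test of that difference called 0 genes in edgeR, with a smallest adjusted p of 0.0764 and 1556 genes at an unadjusted p under 0.05, against 495 genes called by DESeq2 and 0 by limma-voom. Given as saline first and sepsis second, the log2 fold changes of Pf4 were 3.99 and 4.81 and of Nfe2 1.66 and 4.37. Nkg7 had 0.18 and 3.30, Ms4a2 -0.02 and 3.84, and Hsp90b1 -0.07 and -2.14.

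**Figure D5:**
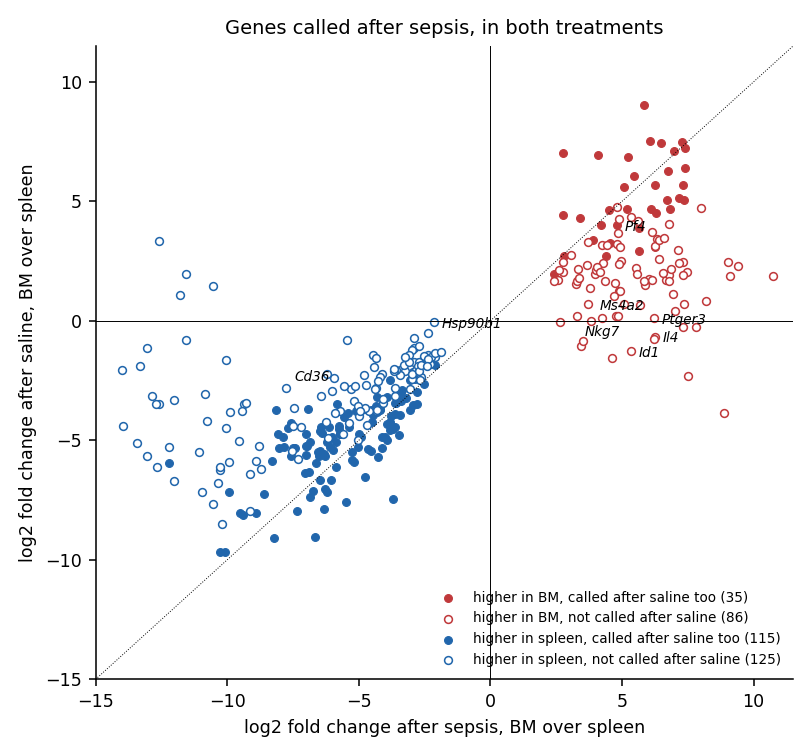
Log2 fold change of BM over splenic MKs after sepsis (x axis) and after saline (y axis) for the 361 genes called after sepsis, red where higher in BM and blue where higher in spleen, filled where also called after saline, with a dotted line of equal values. Most points lie in the quadrants of equal sign (109 of 121 and 236 of 240), and Il4, Id1 and Nkg7 lie near or below 0 after saline.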

How the data were processed

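RNA was measured in MKs sorted from BM and spleen on day 5 after cecal slurry or saline. The authors deposited raw counts of reads per gene, for 55536 Ensembl genes in 12 libraries, from SMART-Seq HT cDNA and Nextera XT libraries, and the submitters' processing notes name STAR 2.7.2b, R 3.6.1, DESeq2 1.26 and GRCm38. Strand settings of the counting were not stated. All 55536 identifiers matched GENCODE M21, which gave positions and exon overlaps on either strand, and promoters came from RefSeq on GRCm38.p6 by symbol.

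The edgeR package (4.0.16, under R 4.3.3) was used on the counts. Genes were kept by filterByExpr (minimum count 10, 20263 genes), scaled by TMM and fitted with 1 mean per group over all 12 libraries (8 residual degrees of freedom). The quasi-likelihood test with Benjamini-Hochberg adjustment called genes at an adjusted p under 0.05, and the SE is the log2 fold change divided by the square root of F. The spread between libraries was large (common dispersion 2.05, a coefficient of variation of 143%).

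Samples were grouped by their labels. The gene lists, members and named genes were chosen with earlier results of these data known. Named genes were the 12 of smallest p and the 6 of highest level in each direction (adjusted p under 0.05, libraries not overlapping, immunoglobulin and T cell receptor segments left out), the genes of the sort, the first 3 genes of each list and up to 4 called members. Every other gene in the text was chosen after its values were seen. 3 genes are not reported here and were left out of the lists and named genes, but not of the fit. Lists, promoters and plots used pandas 2.3.3 and matplotlib 3.10.9 under Python 3.11.15. Alternatives were DESeq2 1.42.0, limma 3.58.1 (voom with quality weights), RLE factors, library size alone, no filter, a filter of 10 counts in 6 libraries, the 6 sepsis libraries alone, removal of immunoglobulin and T cell receptor genes, a replicate block, and each library left out. The procedure was tested on simulated data (20263 genes, 200 changed by a log2 fold change of 6 between the sepsis groups), where edgeR recovered 163 with 11 false calls, DESeq2 177 with 174 and limma-voom 114 with 18. For changes of 3 on the log2 scale it was 15 of 200 in edgeR. The changed genes were drawn only from genes above a minimum mean CPM, so recovery among genes of lower level was not tested.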

Additional observations from a re-analysis of the deposited data

How the results depend on the processing

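Counts of genes higher in BM MKs and in splenic MKs were 121 and 240. They were 607 and 872 with DESeq2, 236 and 488 with limma-voom, 225 and 370 without the expression filter, and 214 and 166 with library size alone. Without 1 library they ranged from 108 to 215 and from 179 to 297. The filter was applied anew in each of these fits and kept 24956 to 25900 genes in place of 20263. In the fit of the 6 sepsis libraries alone it kept 13654. The set of tested genes thus changed together with the libraries in these fits, and the part of each in the calls lost or gained was not tested. The difference between the sepsis and saline comparisons gave 0 genes, 495 with DESeq2, 130 without the filter, and 20 to 42 with 1 library left out. The replicate block gave 151 and 250, with 116 of the 121 and 220 of the 240 genes called again, and 0 genes for that difference. Libraries of equal number showed no pairing in their deviations from the group means (correlations 0.0187, -0.0111 and -0.0566), so the block was not used. This does not exclude that BM and spleen libraries of equal number came from 1 mouse. The block also joined saline with sepsis libraries of equal number, so it was no test of such pairing. Of 113 called genes followed over the alternatives (those of the naming rule, those chosen later and further list members, not all of them named in the text), 86 were called without each of the 6 libraries in turn. For 64, no call was lost under the 9 other alternatives. A gene that an alternative did not test was not counted as lost there, as with immunoglobulin genes where these were removed. No direction reversed where a gene was tested. limma-voom lost 25 of these calls (among them Pf4, Ppbp, Mmrn1, Gata1, Kit, Mcpt8, Ighm, Cd74 and Jchain), the fit of the 6 sepsis libraries alone 32, and library size alone 10. The causes were not tested. With 3 libraries per group the simulated recovery at smaller fold changes was low, so a gene that was not called may still differ.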
